A study of Mus musculus with 10 samples.

Results

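The effect shared by 2 endothelial gene deletions was estimated from all 10 arrays of the series, 5 from deleted and 5 from control samples, with the mouse line as a factor in the model. Samples were assigned by genotype label alone, and no measured value entered the choice. The RNA came from lung endothelial cells isolated by cell sorting, taken from C57/Bl6 mice on postnatal day 6, and was amplified and hybridised to Illumina mouse beadchips. The deleted arms were Rspo3-iECKO (Rspo3 fl/fl with Cdh5-CreERT2, n = 3) and Evi-iECKO (Evi fl/fl with Cdh5-CreERT2, n = 2). Their controls, Rspo3-WT (n = 2) and Evi-WT (n = 3), carried the same floxed alleles without Cre. Cdh5-CreERT2 is a tamoxifen-inducible Cre recombinase driven by an endothelial promoter, so Cre itself differed between every deleted arm and its control and cannot be told apart from the deletions. The sources used here do not give how many animals made up a sample, so the p-values reflect only how far these samples spread.

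Wnt proteins are secreted signals that reach the cell surface with the help of the carrier Wls, also called Evi. R-spondins such as Rspo3 are secreted proteins that keep Wnt receptors on the membrane and so strengthen the Wnt response. Interferons act through receptors, STAT proteins and IRF9 on DNA elements in the promoters of many genes, whose products block virus replication and present antigen. The comparison asked which functions differed in the same direction after either deletion, among interferon-induced genes and outside them.

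A total of 16144 genes were tested as log2 normalized intensity, and each value is a level or a deleted-minus-control difference on that scale. Between 46.5% and 51.3% of probes were detected per array, and the number of arrays limits the precision (median standard error of a joint difference, 0.16). All 7 defining endothelial markers were detected on all 10 arrays, with a mean level of 8.84 to 9.30 on deleted and 8.87 to 9.34 on control arrays. The mean level of the 6 defining markers of alveolar type 2 cells, the surfactant-making epithelial cells, ran from 4.93 to 6.22 on control arrays and from 4.91 to 7.59 on deleted arrays. Evi-iECKO 1 held the lowest and Evi-iECKO 2 the highest of these values. Some list medians and counts are therefore also given without 1 of these arrays, but values of single genes mostly are not. The mean level of 5 defining fibroblast markers, of which 1 was detected on all 10 arrays, was 4.64 to 5.04 on deleted and 4.44 to 4.78 on control arrays. It was higher on every deleted array than on the controls of its line, and its part in the differences was not tested. The 3 measured defining markers of erythroid cells and platelets were detected on all 10 arrays. Their mean level was near that of the endothelial markers, at 7.74 to 8.96 on deleted and 8.73 to 9.44 on control arrays. The lowest of these values was on Evi-iECKO 1. Each group held 1 array with a high level of Xist, the transcript of the inactive X chromosome, so sex was spread evenly over deleted (2) and control (2) arrays.

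Wls read 4.85 and 4.68 in Evi-iECKO against 5.68, 6.21 and 5.69 in Evi-WT. In the Rspo3 line it read 4.96, 5.76 and 5.84 in Rspo3-iECKO against 5.85 and 5.55 in Rspo3-WT. The Evi arms did not overlap while the Rspo3 arms did, and the joint difference was -0.64 (SE 0.22, limma adjusted p = 0.749). Neither Rspo3 probe was detected on any of the 5 arrays of the Rspo3 line, so loss of Rspo3 could not be checked here. Cdh5, the endothelial cadherin gene whose promoter drives Cre, differed by -0.01 (SE 0.17).

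Of the 126 measured genes on 5 interferon lists, 94 had a positive joint difference (74.6% against 49.8% of all genes), and an unadjusted p below 0.05 was reached by 54 on the higher and 0 on the lower side. No gene passed an adjusted p of 0.05 in the line-adjusted limma fit (0% of genes). The smallest adjusted p, 0.0581, belonged to Oasl2, Sp100 and Usp18, which are all interferon-induced. Over all genes at an unadjusted p below 0.05, 477 (2.95%) were higher and 400 (2.48%) were lower. With median scaling in place of quantiles this split was 771 to 196, as the median of all genes moved to 0.04. The median joint difference of the interferon-listed genes was 0.28, and that of all genes was -0.00091. The interferon lists were chosen with earlier results of the same arrays known, so these counts are no independent evidence of direction.

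Oasl2, an oligoadenylate synthetase-like antiviral protein, read 8.5, 7.92 and 7.75 in Rspo3-iECKO against 6.62 and 6.81 in Rspo3-WT. In the Evi line it read 8.70 and 8.56 in Evi-iECKO against 7.83, 7.24 and 7.36 in Evi-WT. Every deleted array lay above every control array of its own line, and the joint difference was 1.25 (SE 0.17, 2.38-fold, limma adjusted p = 0.0581). A further Oasl2 probe gave 1.53.

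Usp18, the protease that removes ISG15 from proteins and dampens interferon receptor signalling, read 7.65, 6.33 and 6.17 in Rspo3-iECKO against 5.02 and 5.39 in Rspo3-WT. The Evi-line levels were 7.59 and 7.43 after deletion against 5.72, 5.40 and 6.04. All 5 deleted arrays exceeded all 5 control arrays, as they did for 75 genes (0.465%), and the joint difference was 1.65 (SE 0.25, 3.14-fold). Its other probe gave 1.40.

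Sp100, a component of nuclear bodies, read 6.44, 6.34 and 5.91 in Rspo3-iECKO against 5.20 and 4.48, and 6.78 and 7.19 in Evi-iECKO against 6.01, 5.68 and 6.09. The arms did not overlap in either line, and the joint difference was 1.23 (SE 0.18). The 4 other Sp100 probes gave smaller values, from 0.02 to 0.46, so its size depended on the probe. Nlrc5, which switches on MHC class I genes, read 6.20, 5.49 and 5.37 in Rspo3-iECKO against 4.31 and 4.62, and 8.0 and 7.02 in Evi-iECKO against 6.32, 5.45 and 5.69. Its joint difference was 1.45 (SE 0.24, adjusted p = 0.102), again with no overlap within a line. Stat2, which carries the type I interferon signal to the nucleus, read 7.55, 6.87 and 6.83 in Rspo3-iECKO against 6.25 and 6.19, and 7.49 and 7.72 in Evi-iECKO against 6.66, 6.55 and 6.80. Its joint difference was 0.90 (SE 0.15, adjusted p = 0.117), with every deleted array above every control array. The antiviral gene Ifit3 had the joint value of 1.69 (SE 0.31, 3.23-fold) but a wide spread, since Rspo3-iECKO 3 read 5.59, between the Rspo3-WT levels of 5.78 and 5.15. With 1 array left out in turn it lay between 1.55 (without Evi-iECKO 1) and 1.97 (without Rspo3-iECKO 3), and it passed adjustment in 3 of 23 alternative settings, with limma adjusted p from 0.00446 to 0.997. Ifit3 and Ifit3b are near-identical copies whose probes may share signal.

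**Figure D1:**
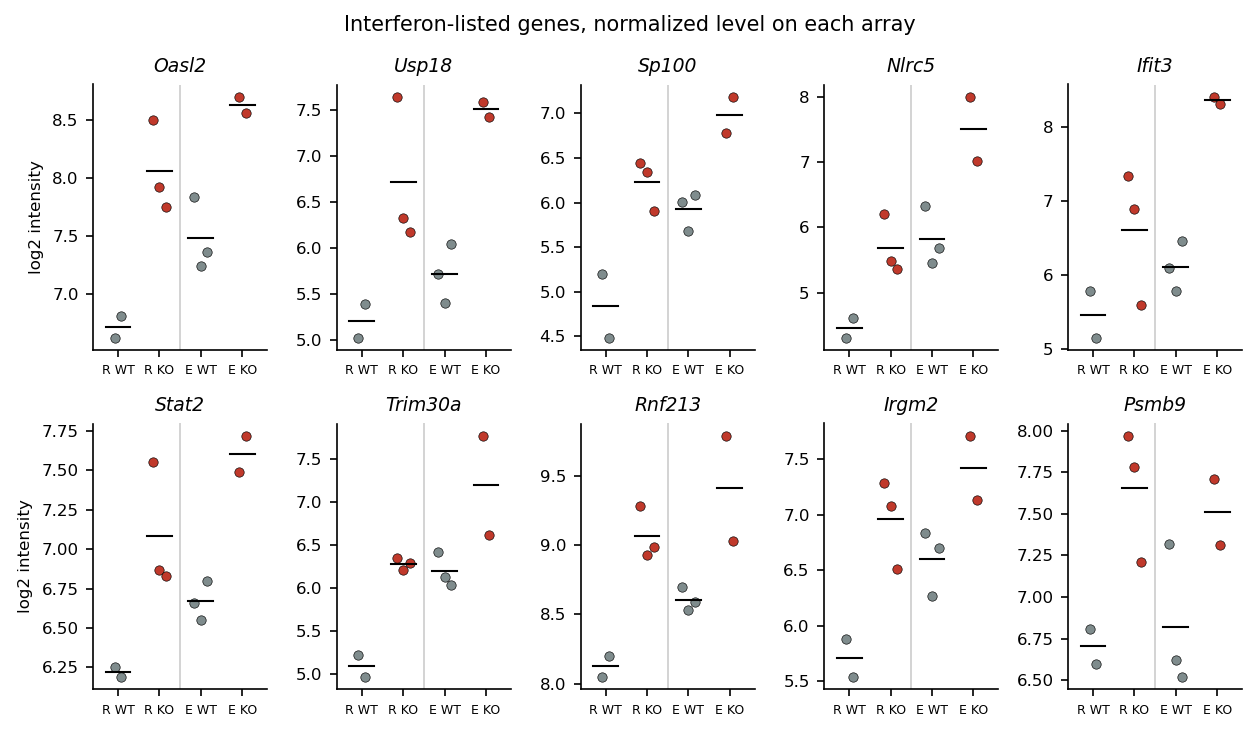
Normalized level (log2 intensity) of 10 interferon-listed genes on each array, with R for the Rspo3 line, E for the Evi line, KO for the iECKO arm, grey points for controls, red points for deleted samples and a bar at the group mean. The deleted points lie above the control points of the same line for Oasl2, Usp18, Sp100, Nlrc5, Stat2, Trim30a, Rnf213 and Irgm2, and overlap them in 1 line for Ifit3 and Psmb9.

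The interferon genes that were higher in both lines are shown with promoter letters. These are the letters that interferon-activated complexes of STATs and IRFs are known to bind, and a closer-spaced variant of them. A gene was counted as higher in both when it had a limma p below 0.05 before adjustment in each line separately, which 45 genes reached (0.279%). Of these 21 were on the interferon lists: Oasl2, Usp18, Sp100, Trim30a, Rnf213, Ifit3, Ifit3b, Ifitm1, Uba7, Parp14, Eif2ak2, Gbp5, Gbp9, Gbp10, Gvin1, Igtp, Irgm2, Stat2, Ddx58, Nlrc5 and Psmb9. RefSeq promoters (GRCm38.p6, 250 bases before to 50 after the gene's start) were at hand for 15 of them. The letters GAAA and GAAA with 1 or 2 further letters between them stood on either strand in 10 of those 15 (66.7%), against 7.27% of 27025 genes in the table and 6.78% of the tested genes it holds. The known form, with 2 letters between, stood in 9 of the 15 (60% against 3.99% of all genes). The variant, with 1 letter between, stood in 5 (33.3% against 3.7%). Of the genes off the interferon lists that were higher in both lines, 3 of 19 held the letters in either form (15.8%), and of those lower in both lines 1 of 14 (7.14%). The following 100-base stretches are given 5′ to 3′ on the gene's own strand, with those letters in capitals, overlapping matches joined, and TTTC marking a match on the opposite strand. They lie at chr10:128270248-128270347 (+) for Stat2, chr1:85649902-85650001 (+) for Sp100, chr19:34583345-34583444 (+) for Ifit3, chr17:78882523-78882622 (-) for Eif2ak2, chr11:58214868-58214967 (+) for Irgm2 and chr7:104465158-104465257 (-) for Trim30a.
Stat2: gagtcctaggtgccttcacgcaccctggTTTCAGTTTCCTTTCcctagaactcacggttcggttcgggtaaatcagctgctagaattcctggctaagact
Sp100: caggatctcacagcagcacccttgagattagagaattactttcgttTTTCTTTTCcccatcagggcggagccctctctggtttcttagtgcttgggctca
Ifit3: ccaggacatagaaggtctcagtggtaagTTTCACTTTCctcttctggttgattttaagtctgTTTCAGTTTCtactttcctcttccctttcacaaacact
Eif2ak2: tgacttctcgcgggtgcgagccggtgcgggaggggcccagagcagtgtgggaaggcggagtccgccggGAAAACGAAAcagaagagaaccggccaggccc
Irgm2: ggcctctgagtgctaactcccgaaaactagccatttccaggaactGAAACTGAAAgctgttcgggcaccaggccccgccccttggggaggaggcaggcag
Trim30a: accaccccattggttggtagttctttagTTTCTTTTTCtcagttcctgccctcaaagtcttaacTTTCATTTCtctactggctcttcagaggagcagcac
Stat2 held overlapping matches of both spacings and Sp100 the shorter one, Ifit3 and Trim30a carried 2 separate matches each, and Eif2ak2, the double-stranded RNA-activated kinase PKR, carried 1 just after the gene's start. The match is a description of letters and not of binding. The share was high among genes listed as interferon-related beforehand, and listed genes that were not higher were not counted for comparison. It is therefore no evidence from these arrays. The windows of Ifit3 and Ifit3b, and those of Igtp and Irgm2, are closely similar, so these are not separate cases. Oasl2, Ifitm1, Psmb9, Rnf213 and Uba7 had no match in their windows. Of the other letters searched on both strands, TTCNNNGAA, the element of STAT homodimers and a motif added after seeing the data, stood in 4 of the 15 (26.7% against 9.55% of all genes), in Eif2ak2, Gbp5, Igtp and Irgm2. GGGA and TTTCC with 1 letter between, bound by NF-kB, stood in 1 (6.67% against 0.466%), in Gbp5. CACGTG, the E-box, stood in 0 of the 15 (8.09% of all genes), and CCAAT in 5 (33.3% against 41.1%).

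Among antiviral effectors, 44 of 50 measured genes were higher and 30 had an unadjusted p below 0.05 on the higher side (against 2.95% of all genes) with 0 on the lower side. Their median was 0.42 jointly, 0.37 in the Rspo3 line against 0.43 in the Evi line. Leaving out any 1 array moved the joint median only between 0.37 and 0.44. Trim30a, a ubiquitin ligase family member, had a joint difference of 1.09 (SE 0.19), and Rnf213, a giant ubiquitin ligase, one of 0.87 (SE 0.15). The mean score of the list, with each gene centred over the 10 arrays, was 0.32, 0.12 and -0.11 in Rspo3-iECKO against -0.31 and -0.40 in Rspo3-WT. In the Evi line it was 0.39 and 0.32 against -0.03, -0.17 and -0.13. The arms did not overlap within either line, although Rspo3-iECKO 3 lay below Evi-WT 1.

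Interferon-induced GTPases, which attack membranes around intracellular pathogens, had the largest median of the 58 lists with all arrays (0.59); without Evi-iECKO 1 the alveolar type 2 markers exceeded it (0.87 against 0.51). Of 16 measured, 15 were higher and 10 had an unadjusted p below 0.05 on the higher side (62.5% against 2.95%). Irgm2 read 7.28, 7.08 and 6.51 in Rspo3-iECKO against 5.88 and 5.54, and 7.71 and 7.13 in Evi-iECKO against 6.83, 6.27 and 6.70. It differed by 1.03 (SE 0.19) with no overlap within either line. Gvin1 (1.15), Gbp10 (0.99) and Igtp (0.87) had the same direction in both lines, and Gbp5, not well above background in Rspo3-WT, was at least 2.00-fold higher. The other Gvin1 probes gave only 0.09 and 0.01. Members of the Gbp and Irg families are close paralogs, and a probe may read more than 1 of them. The brightest Gbp9 probe gave 0.67 and its other probe 0.08.

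Antigen presentation and nucleic acid sensing followed with smaller differences. Of 22 measured MHC class I presentation genes, 15 were higher (68.2% against 49.8% of all genes) and 8 had an unadjusted p below 0.05 on the higher side (36.4% against 2.95%), with 0 lower. Psmb9, a subunit of the immunoproteasome, read 7.97, 7.78 and 7.21 in Rspo3-iECKO against 6.81 and 6.60. In Evi-iECKO it read 7.71 and 7.31 against 7.32, 6.62 and 6.52, so that only Evi-WT 1 reached into the deleted range. Its joint difference was 0.82 (SE 0.19). The peptide transporter gene Tap1 (0.63), beta-2 microglobulin gene B2m (0.43) and Psmb10 (0.40) were also higher at that level. The class I heavy chain gene H2-D1 depended on the probe, with 0.61 on the brightest, 0.03 on the next and -0.42 on a dim one that was lower in both lines. The control score of this list overlapped the deleted range through Evi-WT 1, at 0.24 against 0.02 to 0.23. Of 21 sensing genes 14 were higher (66.7%), 5 of them at an unadjusted p below 0.05 (23.8% against 2.95%) with 0 lower. The RNA sensor gene Ddx58, also called Rig-I, was among them with a Rspo3-line difference of 0.47 and an Evi-line difference of 0.48. Dhx58, its relative Lgp2, had 0.55 jointly.

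Interferon receptors, STATs and IRFs as a group were near the level of all genes. Of 18 measured, 7 were higher and the median was -0.02. The exceptions were the transcription factor partners Stat2 (0.90) and Irf9 (0.73, SE 0.24), which reached an unadjusted p below 0.05. Irf9 read 8.07, 8.10 and 6.76 in Rspo3-iECKO against 6.70 and 7.03, so that Rspo3-iECKO 3 lay with the controls, and 7.79 and 7.87 in Evi-iECKO against 6.91, 6.88 and 7.62. Ifnar2, a subunit of the type I interferon receptor, gave -0.29 (SE 0.17).

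**Figure D2:**
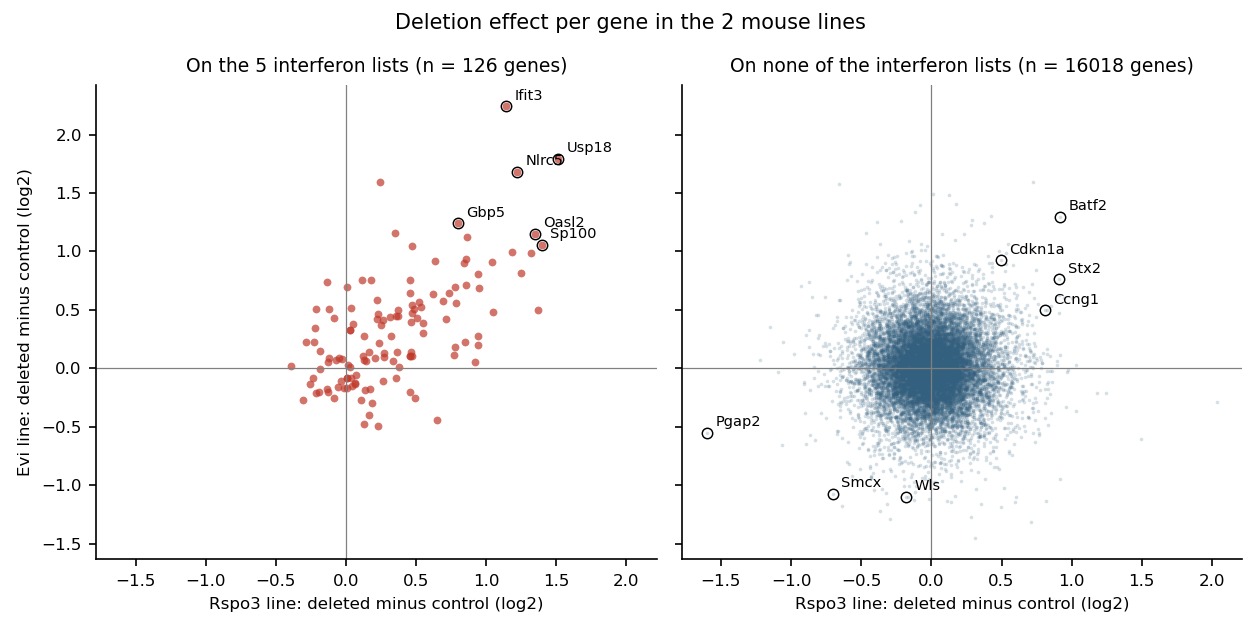
Each point is 1 gene, with its deleted-minus-control difference (log2) in the Rspo3 line on the horizontal axis and in the Evi line on the vertical axis, for the 126 genes on the interferon lists and the 16018 others. The interferon genes extend along the diagonal into the upper right, whereas the others form a round cloud about 0.

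Both lines were compared gene by gene, using controls that the lines do not share. Across the 126 interferon-listed genes the line effects correlated with Pearson's r of 0.615, as a description over genes, which are not independent. Across the other 16018 genes r was -0.0015. Since the lists were chosen with earlier results of these arrays known, this contrast is a description only. With an unadjusted p below 0.05 in each line, 21 interferon-listed genes were higher in both, 0 were lower in both and 0 had opposite directions. Among the others, 24 were higher in both, 21 were lower in both and 47 had opposite directions. Over all genes these were 0.279%, 0.13% and 0.291%. Outside the interferon lists genes with opposite directions were therefore about as frequent as genes with the same direction (47 against 45).

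The same held for arms that did not overlap. Complete separation within each line was found on the higher side in both lines for 226 genes (1.4%), on the lower side for 174 (1.08%) and in opposite directions for 379 (2.35%). For interferon-listed genes the counts were 28, 0 and 3. For the others they were 198, 174 and 376. Of all genes 49.8% had the same sign in both lines, against 73.0% of the interferon-listed genes and 49.6% of the others. Without Evi-iECKO 1 the interferon genes past the level in both lines with the same direction numbered 13, and without Evi-iECKO 2 they numbered 23. For the other genes the counts of same and opposite direction became 64 and 97 without Evi-iECKO 1, and 85 and 63 without Evi-iECKO 2.

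**Figure D3:**
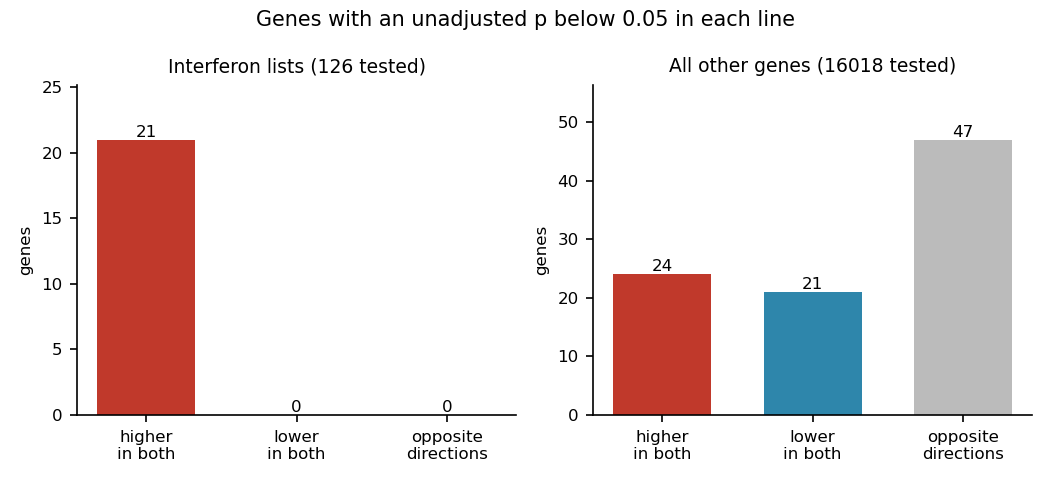
Number of genes with an unadjusted limma p below 0.05 in each line, by direction, for the 126 interferon-listed genes and the 16018 others (bars start at 0). All 21 such interferon genes were higher in both lines, while the others split into 24 higher in both, 21 lower in both and 47 opposite.

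No gene outside the interferon lists passed an adjusted p of 0.05, either in the main fit or in any alternative. The genes of smallest p are described by role, as differences that stood out within these 10 arrays and not as established changes.

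Targets of the tumour suppressor p53, which halts the cell cycle under stress, were higher more often than not. Of 31 measured, 23 were higher (74.2% against 49.8% of all genes), 5 had an unadjusted p below 0.05 on the higher side (16.1% against 2.95%) and 0 on the lower side. Cdkn1a, which encodes the cyclin-dependent kinase inhibitor p21, read 7.57, 7.59 and 7.42 in Rspo3-iECKO against 6.89 and 7.16. In Evi-iECKO it read 8.27 and 7.87 against 7.46, 7.19 and 6.78. Its arms did not overlap in either line, its joint difference was 0.71 (SE 0.16, limma adjusted p = 0.333), and a further probe gave 0.97. Ccng1, which encodes cyclin G1, read 7.74, 7.58 and 7.75 in Rspo3-iECKO against 6.72 and 7.04, and 7.29 and 7.68 in Evi-iECKO against 7.13, 6.92 and 6.92. All 5 deleted arrays lay above all 5 controls, with a joint difference of 0.65 (SE 0.14, adjusted p = 0.27) and 0.29 and 0.40 from its other probes. Sesn2, a stress-induced inhibitor of mTORC1, differed by 0.68 on its brighter probe and by -0.06 on the other. Phlda3, an inhibitor of Akt, differed by 0.23 in the Rspo3 line against 1.15 in the Evi line, and Rps27l by 0.21 against 0.62. The list score was -0.06, 0.06 and -0.04 in Rspo3-iECKO against -0.14 and -0.10, and 0.31 and 0.09 in Evi-iECKO against -0.01, -0.03 and -0.08. The arms did not overlap within a line, but the Rspo3-line gap was small, and the joint list median of 0.13 became 0.06 without Evi-iECKO 1. These genes were chosen with earlier results of the same arrays known, so their count is no independent evidence of direction.

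Cdkn1a was also the gene higher in both lines with a pair of p53 half-sites, held by 1 of its 2 promoter windows. Such a pair was found for 0.074% of all genes with a promoter. Among the 19 such genes higher in both lines off the interferon lists, it was found for 1. The stretch is chr17:29090872-29090971 (+), with the matched pair and its spacer in capitals.
Cdkn1a: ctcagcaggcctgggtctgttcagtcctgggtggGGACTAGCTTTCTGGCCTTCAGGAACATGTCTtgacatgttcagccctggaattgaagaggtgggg
None of the windows of the 15 interferon-listed or 14 lower genes held this pair, which says only that those letters are not in the windows searched.

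Among transcription factors, Meis2, a homeobox protein, read 7.31, 6.94 and 7.30 in Rspo3-iECKO against 6.59 and 6.56, and 7.06 and 7.08 in Evi-iECKO against 6.38, 6.56 and 6.37. The deleted and control arrays were separated over the whole series, the joint difference was 0.62 (SE 0.12, adjusted p = 0.21), and the other probe gave 0.42. Batf2, a leucine zipper factor that interferon is known to induce but that was on none of the lists, read 5.85, 5.82 and 5.86 in Rspo3-iECKO against 4.54 and 5.31. In Evi-iECKO it read 6.82 and 6.79 against 6.37, 4.90 and 5.24, and the joint difference was 1.11 (SE 0.24, adjusted p = 0.307). H2-Q5, likewise off the lists, belongs by name to the MHC class I family and differed by 0.50 in each line. The exclusion of interferon genes was therefore not complete. Jdp2, a repressor of AP-1 factors, was at least 1.43-fold higher, being not well above background in Evi-WT.

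Kcnk5, an acid-sensitive potassium channel, read 6.65, 7.20 and 6.58 in Rspo3-iECKO against 5.57 and 6.22, and 7.76 and 8.07 in Evi-iECKO against 7.10, 7.46 and 7.28. The arms separated within each line around different levels, with a joint difference of 0.77 (SE 0.17) and 0.66 on the other probe. Map3k6, a stress-activated kinase, differed by 0.56 (SE 0.13; other probe 0.40). Phlda1, on the list of growth factor feedback genes, differed by 0.61 (SE 0.18) in both lines. That list had 16 of 24 genes higher and a median of 0.13, but Phlda1 was its 1 member with an unadjusted p below 0.05. Chaf1b, a subunit of the complex that places histones on new DNA, read 5.93, 6.57 and 6.45 in Rspo3-iECKO against 5.55 and 5.77, and 6.62 and 6.80 in Evi-iECKO against 6.24, 5.64 and 6.17. It differed by 0.67 (SE 0.16) with no overlap within a line.

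Of 38 S-phase and replication genes 28 were higher with a median of 0.13, yet only Chaf1b was higher at an unadjusted p below 0.05 and Dut, which removes dUTP, was lower (-0.31). The mitosis list had 16 of 26 higher and none past that level in either direction. Chek1, the checkpoint kinase, was not well above background in both control arms, and of its Evi-iECKO levels 5.69 lay above and 4.24 among the Evi-WT levels of 4.15 to 4.31, so it was not separated in that line.

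Stx2, a syntaxin of the membrane fusion machinery, had the smallest p off the interferon lists (adjusted p = 0.116). It read 5.11, 5.0 and 5.52 in Rspo3-iECKO against 4.36 and 4.24, which were not well above background, and 5.20 and 5.25 in Evi-iECKO against 4.69, 4.27 and 4.42. All deleted arrays lay above all controls, at least 1.77-fold, but near the floor of detection. Tmed3, a cargo receptor between the endoplasmic reticulum and Golgi, differed by 0.73 on its brighter probe and -0.17 on the other. Pgls, an enzyme of the pentose phosphate pathway, differed by 0.68 on 1 probe and by -0.05 to 0.05 on 3 others. Both differences were thus seen on 1 probe of the gene. Nqo2, a quinone reductase, differed by 0.59 (SE 0.13), with 0.65 and 0.17 from other probes. Gstt4, a glutathione transferase, was at least 1.48-fold higher and was not well above background in either control arm. The NRF2 and antioxidant list itself had 13 of 22 higher, a median of 0.04 and 1 gene, Gclc (0.40), with an unadjusted p below 0.05.

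**Figure D4:**
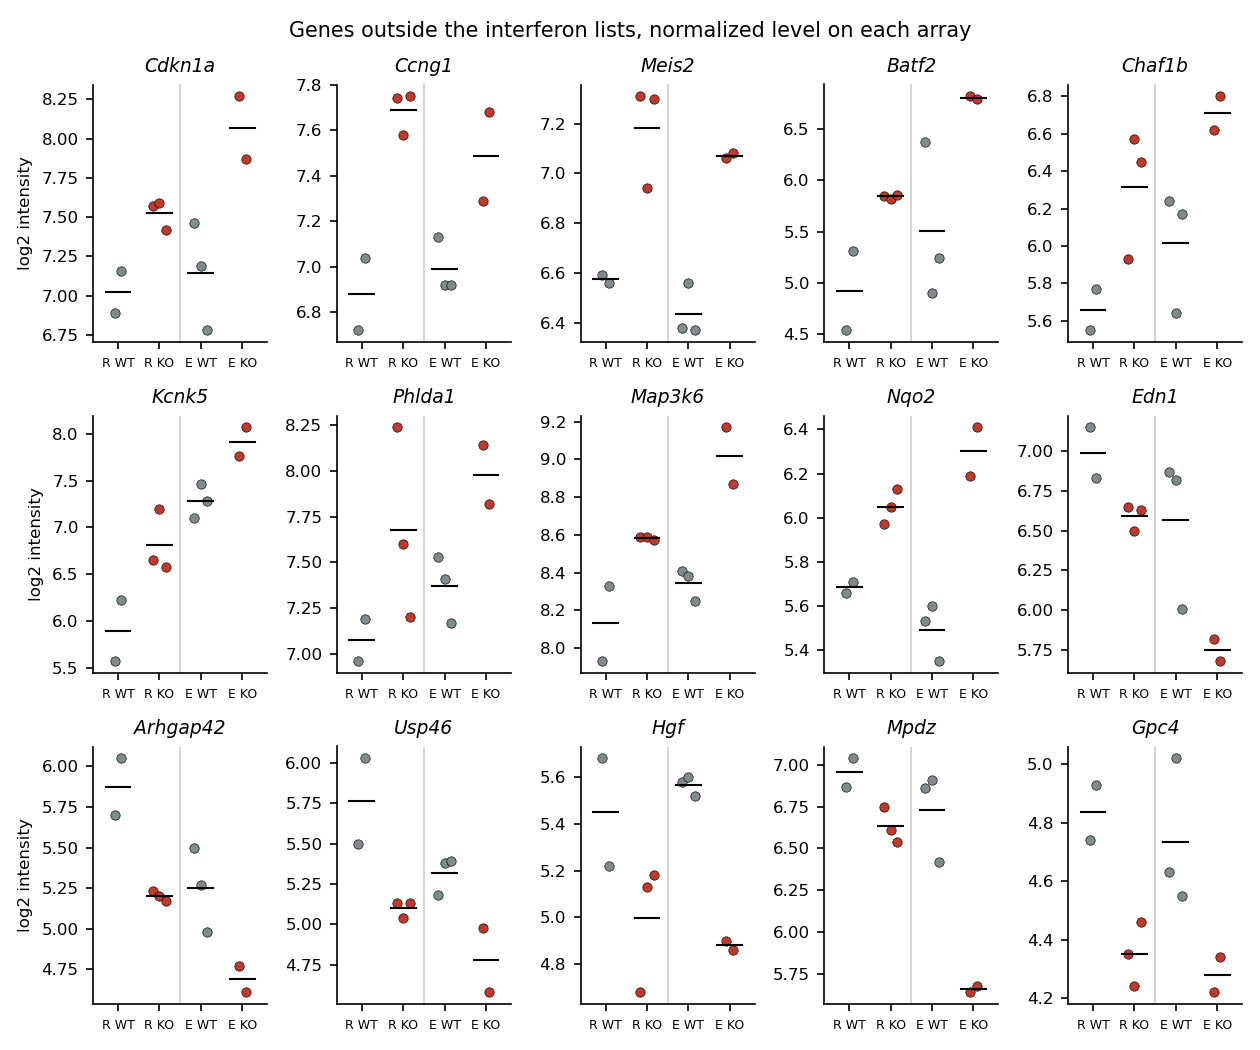
Normalized level (log2 intensity) on each array for 15 genes on none of the interferon lists, with R for the Rspo3 line, E for the Evi line, KO for the iECKO arm, grey points for controls, red points for deleted samples and a bar at the group mean. Genes from Cdkn1a to Nqo2 have the deleted points above the control points of the same line, and genes from Edn1 to Gpc4 have them below.

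Off the interferon lists 21 genes were lower in both lines at an unadjusted p below 0.05 in each, against 24 higher in both. The lower genes belonged to no single list. Smcx had the smallest p (adjusted p = 0.181), a symbol of the array design that RefSeq gives as a synonym of the X-linked histone demethylase gene Kdm5c. It read 5.92, 5.75 and 5.14 in Rspo3-iECKO against 6.20 and 6.42, and 5.39 and 5.53 in Evi-iECKO against 6.39, 6.35 and 6.85. The deleted arrays lay below all controls, as for 50 genes (0.31%), with a joint difference of -0.89 (SE 0.17). Arhgap42 read 5.23, 5.20 and 5.17 in Rspo3-iECKO against 5.70 and 6.05, and 4.77 and 4.61 in Evi-iECKO against 5.50, 5.27 and 4.98. Its arms separated within each line (-0.62, SE 0.14), but a dimmer probe gave 0.43 in the Rspo3 line against -0.72 in the Evi line. Usp46, a deubiquitinase, differed by -0.60 (SE 0.14), and Hgf, the ligand of the Met receptor, by -0.57 (SE 0.14). Hgf read 4.68, 5.13 and 5.18 in Rspo3-iECKO against 5.68 and 5.22, and 4.90 and 4.86 in Evi-iECKO against 5.58, 5.60 and 5.52. The arms did not overlap, although 1 of its other probes gave -0.02.

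Several lower genes rested on 1 of their probes. Aqr, a helicase of the spliceosome, gave -0.77 against 0.14 and 0.05 on its other probes, Snurf, an imprinted transcript, gave -0.72 against -0.16 and 0.02, and Cwf19l1 gave -0.72 against 0.30. Pgap2, which remodels the lipid anchor of GPI-linked proteins, gave -1.07 (SE 0.22) against 0.21 on a dim probe. Of 21 GPI-anchor genes 10 were higher and 2 were lower at an unadjusted p below 0.05 (9.52% against 2.48% of all genes), namely Pgap2 and Pigo (-0.40). The other Pigo probes gave 0.05 to 0.22, and with the mean of all probes its sign reversed (0.01). Cdon, a co-receptor of hedgehog signalling, was at least 1.45-fold lower, and Gpc4, a heparan sulphate proteoglycan of the cell surface, at least 1.35-fold lower, both being not well above background in Evi-iECKO. The other Cdon probe gave -0.06.

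As over all genes, no gene of the endothelial lists passed adjustment. Edn1, the vasoconstrictor endothelin, read 6.65, 6.50 and 6.63 in Rspo3-iECKO against 7.15 and 6.83, and 5.82 and 5.68 in Evi-iECKO against 6.87, 6.82 and 6.01. It was lower on every deleted array within its line (-0.61, SE 0.18, adjusted p = 0.61). On the same list of flow-responsive and vasoactive genes, Plat, the tissue plasminogen activator (0.48), the bradykinin receptor gene Bdkrb2 (0.42) and the prostacyclin synthase gene Ptgis (0.27) were higher at an unadjusted p below 0.05 (14.3% of the list against 2.95%), and 15 of 21 genes had a positive difference (71.4% against 49.8%). Cav1, the coat protein of caveolae, differed by -0.39 (SE 0.13) with no overlap within either line. Of 27 junction and adhesion genes 8 were higher and 3 were lower at an unadjusted p below 0.05 (11.1% against 2.48%). These were Mpdz, a scaffold of tight junctions (-0.70), Ctnnd1, the p120 catenin that holds cadherins at the membrane (-0.49), and the polarity protein gene Pard3 (-0.47). Each rested in part on the probe read, since the other Mpdz probes gave -0.40 to 0.14, those of Ctnnd1 -0.46 to -0.01 and those of Pard3 -0.10 to 0.45.

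General capillary genes had 3 of 18 higher, against 49.8% of all genes, and a median of -0.13, or -0.06 without Evi-iECKO 1. Of these Hilpda, a hypoxia-induced protein of lipid droplets (-0.59), and Hmcn1 (-0.49) had an unadjusted p below 0.05. Both rested on 1 probe, and their other probes, detected on all 10 arrays, gave 0.02 and -0.01. The score of Rspo3-iECKO 2 was 0.08, above both Rspo3-WT arrays at 0.06, so the arms overlapped. Of 30 general endothelial genes 11 were higher with none past that level, and the list median was -0.02. Aerocyte, arterial, venous and lymphatic, Notch, VEGF, and BMP and TGF-beta lists had medians from -0.07 to 0.04 with at most 1 gene past that level in each direction. Of 28 guidance genes 13 were higher, with a median of -0.02. The semaphorin receptor gene Plxna2 (0.63), Efnb1 (0.42) and Efna5 (at least 1.36-fold, not well above background in Rspo3-WT) were higher at that level. They made up 10.7% of the list, against 2.95% of all genes. Ephb1 (-0.52) was lower at that level (3.57% against 2.48%). Plxna2 gave 0.17 in the Rspo3 line against 1.09 in the Evi line.

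Wnt lists, the pathway both deletions act on, lay near the level of all genes. Of 23 canonical Wnt targets 11 were higher with a median of -0.02, and 1 had an unadjusted p below 0.05, Prickle1 (-0.29), against 2.48% of all genes on that side. Receptors and modulators had 10 of 25 higher with Ryk, a Wnt co-receptor, at -0.27, lower on every deleted array within its line. Of the destruction complex and Dishevelled list, 11 of 21 were higher and Tcf7l1 read 0.28. Calcineurin and NFAT genes had a median of 0.05, with Rcan3, an inhibitor of calcineurin, at 0.43.

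Lists of the protein and energy machinery showed no common direction. Of 37 mitochondrial ribosome genes 20 were higher (median 0.02), and 4 had an unadjusted p below 0.05 on the higher side (10.8% against 2.95%), Mrps10 (0.59), Mrpl11 (0.48), Mrpl2 (0.38) and Mrpl30 (0.29). The other Mrps10 probes gave -0.06 and -0.08. Respiratory chain genes had 32 of 55 higher and a median of 0.01. The assembly factor genes Cox18 (0.47) and Ndufaf4 (0.45) were higher in both lines without overlap, although a dim Cox18 probe gave 0.0048, while Cox14 read -0.56. Cytosolic ribosomal proteins had a median of 0.04, with Rpl34 at 0.43 without overlap in either line. Fbxw7, the substrate receptor of a ubiquitin ligase, read 0.43, also without overlap, but -0.19 on a dim probe that was lower in both lines. The remaining lists had medians between -0.08 for hypoxia and glycolysis and 0.16 for NF-kB targets, of which Csf1, the macrophage growth factor gene, was the 1 member with an unadjusted p below 0.05 (0.45).

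**Figure D5:**
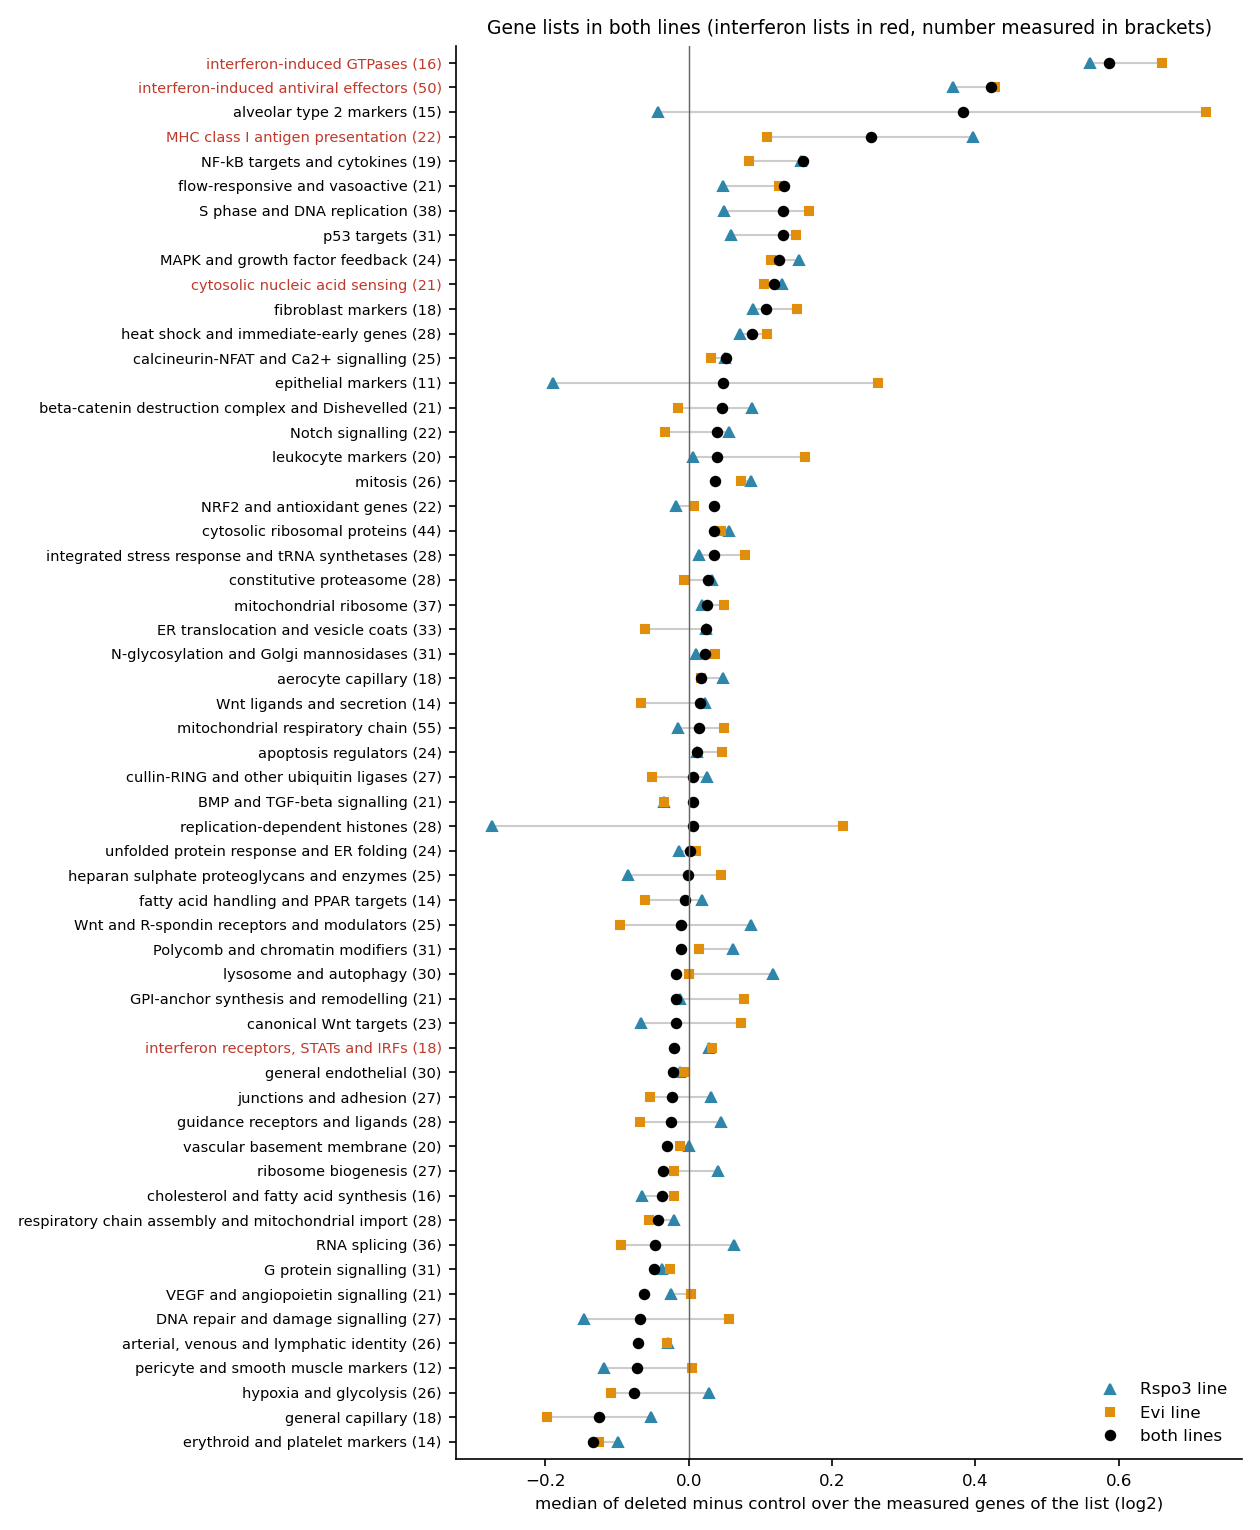
Median deleted-minus-control difference (log2) over the measured genes of 57 of the 58 lists, for both lines together (black circles), the Rspo3 line (blue triangles) and the Evi line (orange squares), with interferon lists in red and the number of measured genes in brackets. The interferon-induced GTPases and antiviral effectors lie to the right of 0 in both lines and have the highest joint medians, while the alveolar type 2 markers are the highest list in the Evi line and near 0 in the Rspo3 line.

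The lines were also tested against each other, since a joint value can rest on 1 of them. No gene passed an adjusted p of 0.05 for the difference between the line effects in limma, and 979 had an unadjusted p below 0.05 (6.06%). For Oasl2, Usp18 and Stat2 this p was 0.59, 0.593 and 0.808, which does not show that the effects were equal. Among the named genes off the interferon lists Pgap2 gave -1.60 in the Rspo3 line against -0.55 in the Evi line (unadjusted p of the difference 0.0129). Mpdz gave -0.32 and -1.07 (0.0168), and Man1b, an array symbol that RefSeq gives as a synonym of the Golgi mannosidase gene Man1a2, gave -0.41 and -1.04 (0.0339). None of these differences passed adjustment.

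Markers of other cells were also compared. All 15 alveolar type 2 markers had a positive joint difference (median 0.38) with none at an unadjusted p below 0.05. Their score was 1.59 on Evi-iECKO 2 and -0.72 on Evi-iECKO 1, and without Evi-iECKO 2 the median was -0.16. Fibroblast markers had a positive difference in 16 of 18 (88.9% against 49.8% of all genes) with a median of 0.11, between 0.08 and 0.16 with any 1 array left out. Dcn, a matrix proteoglycan not well above background in Rspo3-WT, was the 1 member past that level (at least 1.32-fold higher). The fibroblast score was 0.065, 0.088 and 0.109 in Rspo3-iECKO against -0.014 and 0.018, and -0.031 and 0.136 in Evi-iECKO against -0.039, -0.158 and -0.174. It was thus above the controls on every deleted array within its line. Of 14 erythroid and platelet markers 3 were higher (21.4% against 49.8% of all genes, median -0.13). Of the 3 measured defining markers of these cells 0 were higher, and their median was -0.57. Leukocyte markers had a median of 0.04, and Cd74, the MHC class II chaperone, read 6.39 on Evi-iECKO 2 and at most 4.96 elsewhere. The antiviral effector median was 0.42 with all arrays and 0.44 without Evi-iECKO 2. The part of the alveolar type 2, fibroblast and other markers in the differences was not tested. In sorted bulk samples a change in the share of a cell type and a change in RNA per cell cannot be told apart.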

How the data were processed

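RNA from a PicoPure kit was amplified with NuGEN's SPIA method, per the labels' protocols. The authors deposited non-normalized bead intensity for every probe and array, and a detection p-value beside each value, per the file headers. Their deposited normalized intensity, of a method not given in the sources used here, served as an alternative only. The deposited p-values are not ranks among negative controls, so an alternative did without them.

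Computation used R 4.3.3 with limma 3.58.1, and figures used Python and matplotlib. The deposited intensity values went through limma's neqc (offset 16), which corrects background, normalizes by quantiles and takes log2. Of 46237 probes, the 30017 with a detection p under 0.05 on 2 or more arrays were used, and the brightest probe represented each of 16144 genes. Probe names came from the platform annotation, updated against RefSeq (GRCm38.p6), with 10453 probes unnamed. Where no array of a group detected a probe, that group was called not well above background, and folds against it are lower bounds set by the weakest signal detected on its arrays.

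A linear model with line and deletion was fitted to all 10 arrays with limma, with Benjamini-Hochberg adjustment over all genes (threshold 0.05). Line effects and their difference came from 4 group means. The fit was tested on simulated data. Of 1616 genes on 58 lists, 1383 were measured. The members and lists were chosen with earlier results of these data known. The values of 1 list are not reported here. Lists were described by counts and medians without a set test. Named genes were Rspo3, Wls and Cdh5; the 10 genes of smallest joint p per direction, since none passed; the 15 of smallest p per direction off the interferon lists; 10 per direction with an unadjusted p below 0.05 in each line; and up to 6 per list by p. Parp14, Uba7, Ifitm1, Ifit3b and Eif2ak2 were named after their values were seen. Alternatives covered background correction, scaling, filters, probe summary, weights, variance prior, line term, replicate block, sex and leaving out each array.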

Additional observations from a re-analysis of the deposited data

Results flagged for a closer look

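Single arrays that lay far from the other 4 of their deleted or control set were searched for in 202 sets of 5 arrays, and 12 were found. Each set mixed arrays of both lines and was not centred by line, so differences between the lines entered the search. Chance would flag about 1 in 20 sets if all 5 values came from 1 normal distribution, which does not hold where the lines differ. Of the genes, Trim30a read 7.77 on Evi-iECKO 1, against 6.62 for the next deleted array. Usp46 read 4.58 on Evi-iECKO 2. Rspo3-WT 2 was low for Fam120c (4.96) and Zfp870 (4.82), and Rspo3-WT 1 was high for Miga1 (6.50).

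Of the list scores, Rspo3-WT 1 was low for interferon receptors, STATs and IRFs (-0.161). Evi-WT 1 was high for MHC class I presentation (0.239) and for NF-kB targets (0.0418), and Evi-WT 2 for ribosome biogenesis (0.188). Evi-iECKO 1 was high for the integrated stress response (0.184) and low for cytosolic ribosomal proteins (-0.109). Rspo3-iECKO 3 was high for lysosome and autophagy genes (0.116).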

How the results depend on the processing

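The number of genes with an adjusted p below 0.05 was 0 on the lower side under all 23 alternatives and with each probe as its own feature. On the higher side it was 0 in the main fit and 6 with normexp without detection p-values, 3 when detection on at least 5 arrays was asked, 1 with the mean of all probes, 3 with array weights, 11 with a trended robust variance prior, 2 with sex by Xist as a factor, 0 to 3 with 1 array left out, and 3 at an adjusted p threshold of 0.1. With each probe as its own feature, an alternative chosen after seeing the data, it was 1. Every gene that passed was on the interferon lists, Oasl2 most often. Deviations of same-numbered arrays from their group means correlated with r from -0.12 to 0.13 over 13 pairs. In groups of n = 2 the deviations mirror each other, so this cannot tell whether same-numbered samples were paired. The replicate block gave 2 genes.

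Median scaling moved the median of all genes to 0.04 and turned the counts at an unadjusted p below 0.05 into 771 higher and 196 lower, from 477 and 400. Each probe as its own feature gave 878 and 833. Interferon genes past the level in both lines in the same direction numbered 13 to 24 with 1 array left out, and those of opposite direction 1 with median scaling, 1 with no filter on dim probes and 0 to 1 with 1 array left out. For other genes the same-direction count was 92 with no filter and 37 to 85 with 1 array left out. Their opposite-direction count was 30 with normexp without detection p-values, 120 with median scaling, 101 with no filter, 31 with detection on at least 5 arrays and 34 to 97 with 1 array left out. Without background correction the medians shrank to 0.166 for antiviral effectors, 0.248 for GTPases and 0.0409 for p53 targets, and with the authors' normalized values to 0.176, 0.278 and 0.0481. Over 128 followed genes 2900 values were counted as unchanged, and 37 came to pass the threshold. Genes with an unadjusted p below 0.05 in the main fit had to keep direction and side of the threshold. Cdh5, above that level, had only to move by less than its within-group SD. Its sign varied, from -0.16 to 0.17 with 1 array left out. Pigo reversed to 0.0106 with the mean of all probes. The cause of these shifts was not tested.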

Other observations

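A few further genes off the interferon lists had an unadjusted limma p below 0.05 in each line and the same sign, without passing adjustment. Erf, a repressor of the ETS family, differed by -0.60 (SE 0.16), Pold4, a small subunit of DNA polymerase delta, by -0.55 (SE 0.15) and Miga1, a mitochondrial fusion factor, by -0.62 (SE 0.17), and their arms did not overlap within either line. The other probes of Pold4 and Miga1 gave -0.19 and -0.44. On the higher side Dusp19, a dual-specificity phosphatase, differed by 0.56 (SE 0.15) without overlap in either line, and Arhgef6, a Rac and Cdc42 exchange factor, by 0.61 (SE 0.16) with overlap in the Rspo3 line. Erf, Arhgef6 and Dusp19 were named after their values were seen.

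Among growth factor genes, Igf2 differed by 1.16 (SE 0.62) and Igfbp5 by 0.76 (SE 0.36), neither passed the test, and the arms of both overlapped in each line. For Igf2 the arrays Rspo3-iECKO 2 and Evi-iECKO 2 read 8.47 and 8.74, and the other deleted arrays read 5.08 to 6.01, within the range of the controls (4.84 to 6.17). For Igfbp5 the same arrays were the highest in their lines, at 5.84 and 6.73. Among Notch genes the target Nrarp differed by 0.58 (SE 0.19) and the glycosyltransferase gene Rfng by -0.42 (SE 0.15), and neither passed adjustment. Of 5771 probes that carried no gene symbol, 0 had an adjusted p below 0.05 in limma and 279 had an unadjusted p below 0.05.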
